A study of Mus musculus with 27 samples.

Results

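NOD/ShiLtJ is an inbred mouse strain that spontaneously develops autoimmune diabetes, and its liver methylome was set here against that of 8 other inbred strains. The comparison used all 27 samples of the study, of which 3 were NOD/ShiLtJ and 24 came from the other strains, 3 from each. The other strains were the classical inbred strains C57BL/6J, 129S1/SvImJ, DBA/2J, A/J and NZO/HlLtJ and the wild-derived strains WSB/EiJ, PWK/PhJ and CAST/EiJ. Every sample was hepatocyte DNA from the liver of a female mouse aged 12 weeks. The labels name no treatment, engineered allele or diabetes status, and they call the samples of a strain biological replicates. DNA was read by reduced representation bisulfite sequencing, in which the enzyme MspI cuts at CCGG sites and bisulfite converts unmethylated cytosines, so that the reads give a percent methylation at each cytosine they cover.

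Methylation of cytosine in CpG dinucleotides is copied onto the new strand when DNA is replicated, and most CpGs outside CpG islands are methylated in mouse tissues. Islands at the start sites of active genes are usually free of it. A DNA variant that lies near a CpG can set the level of its neighbourhood, so inbred strains can differ at defined places while their overall methylation is alike. In NOD mice, immune cells destroy the insulin-producing beta cells of the pancreas, and genes of the major histocompatibility complex (MHC) on chromosome 17 are the best known part of the inherited risk.

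Each NOD/ShiLtJ file listed between 2904787 and 3034139 positions, and the second replicate had the fewest of the 27. The comparisons rest on 1692477 positions listed in all 27 files, given by their position in the GRCm38 build, and on the means of 1 kb tiles that hold at least 5 of them. The read depth behind a percentage is unknown, because the files hold percentages only. Positions and tiles with a mean over all samples at least 2.5 points from both 0 and 100% were tested, which left 704335 positions and 45604 tiles. A tile was called different when the adjusted p of limma's moderated test was under 0.05 and the NOD/ShiLtJ mean lay at least 25 percentage points from the mean of the other 8 strain means. It was called set apart when, in addition, all 3 NOD/ShiLtJ samples lay above, or all below, every one of the 24 others. At the start sites of 10 hepatocyte marker genes, read within 1 kb of the start, the NOD/ShiLtJ level had a median of 1.06% and a highest value of 6.66%. At 6 start sites of markers of other liver cells the median was 14.2%, and the values ran from 2.10% at Lrat to 92.1% at Tie1. The endothelial gene Kdr was at 2.88%, as low as some hepatocyte markers, and at each of the 6 the NOD/ShiLtJ mean lay within the range of the other samples.

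The widest positive difference in NOD/ShiLtJ lay at the start of Gm8773, a predicted gene on chromosome 5. Of the 32851 RefSeq promoter windows searched, each from 250 bases before to 50 after a gene's start, 11 held a set-apart position, and only those of Gm8773 and the noncoding RNA gene Gm29638 held 5 or more. Those windows are shown because they carry NOD/ShiLtJ differences at a gene's start. That of Myd88 held 1 set-apart position and was added because the gene codes for the adaptor of most Toll-like receptors. The windows not shown held 1 or 2 set-apart positions. The capital CG letters are the CpGs with a set-apart position on one or both strands, and the sequences are those of RefSeq on GRCm38.p6, 5′ to 3′ along the gene.
Gm8773, chr5:5573754-5574053, plus strand: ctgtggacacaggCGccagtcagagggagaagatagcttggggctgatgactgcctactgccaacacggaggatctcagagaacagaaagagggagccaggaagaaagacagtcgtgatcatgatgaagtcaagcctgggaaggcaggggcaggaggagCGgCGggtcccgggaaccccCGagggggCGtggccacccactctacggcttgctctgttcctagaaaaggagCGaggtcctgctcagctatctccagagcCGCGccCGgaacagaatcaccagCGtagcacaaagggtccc
Gm29638, chr7:12949735-12950034, plus strand: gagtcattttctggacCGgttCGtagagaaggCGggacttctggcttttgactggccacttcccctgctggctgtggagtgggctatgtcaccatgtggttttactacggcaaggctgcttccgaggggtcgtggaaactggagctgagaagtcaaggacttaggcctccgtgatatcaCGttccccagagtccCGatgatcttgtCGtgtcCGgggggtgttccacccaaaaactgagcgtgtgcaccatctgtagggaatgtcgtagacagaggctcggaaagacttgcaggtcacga
Myd88, chr9:119339969-119340268, minus strand: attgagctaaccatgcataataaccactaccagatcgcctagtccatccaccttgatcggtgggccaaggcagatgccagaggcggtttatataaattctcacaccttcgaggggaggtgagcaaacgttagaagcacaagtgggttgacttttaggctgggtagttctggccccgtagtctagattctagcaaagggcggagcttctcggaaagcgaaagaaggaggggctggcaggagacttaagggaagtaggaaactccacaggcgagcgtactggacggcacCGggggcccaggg

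All 20 shared positions in the Gm8773 window were set apart, at 10 of its 14 CpGs. Their mean was 74.8%, 82.2% and 74.5% in the 3 NOD/ShiLtJ samples and between 1.95% and 15.9% in the 24 others, with a median of 4.48%. In the Gm29638 window 8 of 12 shared positions were set apart, at 7 of 15 CpGs, and their mean was 47.2%, 49.2% and 37.2% in NOD/ShiLtJ against 0 to 14.3% elsewhere. The Myd88 window held 1 shared position. It read 40.0%, 40.7% and 42.2% in NOD/ShiLtJ, while the others ran from 0 to 33.3% with a median of 1.67%. Over the 28 positions within 1 kb of the Myd88 start the NOD/ShiLtJ mean was 6.76%, inside the range of the other samples, which reached 7.39%.

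The genome-wide mean did not set NOD/ShiLtJ apart. Over the shared positions the 3 samples had means of 27.7%, 27.7% and 27.8%, or 27.8% ± 0.0808 (SD, n = 3), inside the range of 27.2% to 28.6% of the other samples. NOD/ShiLtJ ranked 4 of 9 strains by this mean. Its difference from the mean of the other samples was -0.0871 percentage points (two-sided exact permutation test over 2925 assignments of samples, p = 0.739). That test treats the 27 samples as exchangeable, although samples of a strain lay close together, so the rank over the 9 strains is the more direct description.

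At single loci NOD/ShiLtJ differed in both directions. Of the tested tiles 145 were different, or 0.318% of them, with 77 higher (0.169%) and 68 lower (0.149%) in NOD/ShiLtJ. The higher tiles had a median of 69.6% in NOD/ShiLtJ and 33.0% in the other strains, and the lower ones 21.3% and 54.6%. The absolute difference had a median of 29.5 points over the 145 tiles. Of the different tiles 35 were set apart, or 0.0767% of those tested, with 21 higher and 14 lower, at 30 loci when tiles within 5 kb were joined. With 1 NOD/ShiLtJ sample left out in turn, 89 of the 145 tiles were called each time.

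Among the higher tiles, that at chr5:5574001-5575000 in Gm8773 read 84.9%, 90.0% and 84.0% in NOD/ShiLtJ, while the 24 others ran from 2.55% to 31.0% with a median of 5.01%. The NOD/ShiLtJ mean was 86.3% ± 3.21 (SD, n = 3), 77.7 points above the other strains (limma, adjusted p = 6.53e-11). The neighbouring tile, whose last base lies 4 bp before the start of the gene, was 63.4 points higher (limma, adjusted p = 5.55e-14). A run of 28 set-apart positions covered 450 bp across both tiles, and 29 positions had been tested in that stretch. The highest of the other strains were WSB/EiJ, at 21.7%, and NZO/HlLtJ, at 16.1%, in the tile inside the gene.

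Neu1 codes for the lysosomal sialidase and lies in the MHC region of chromosome 17. Its tile at chr17:34934001-34935000, a mean of 37 positions, read 88.2%, 84.0% and 86.4% in NOD/ShiLtJ and from 27.7% to 83.5% elsewhere, with a median of 33.3%. The difference was 47.1 points (limma, adjusted p = 2.09e-13). All 37 positions were higher in NOD/ShiLtJ than the mean of the other strains, but 23 were called different and 1 was set apart. One other strain was nearly as high: PWK/PhJ had a mean of 81.7%, and the gap between its highest and the lowest NOD/ShiLtJ sample was 0.565 points. The remaining strains had means of 30.3% to 38.4%.

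S1pr5, the gene of a sphingosine-1-phosphate receptor found on natural killer cells, was higher in 2 adjacent tiles. The tile at chr9:21245001-21246000 read 68.4%, 64.9% and 67.6% in NOD/ShiLtJ, against a median of 14.5% and a highest value of 57.3% in the others. It was 43.5 points above them (limma, adjusted p = 2.27e-09), and the adjacent tile was 39.2 points above (adjusted p = 3.78e-08). These tiles hold 39 and 27 of the 76 shared positions within the gene, so the mean over the gene mostly repeats them. Over all 76 positions NOD/ShiLtJ was at 69.8% ± 0.743 (SD, n = 3). CAST/EiJ, PWK/PhJ and WSB/EiJ followed at 57%, 52.5% and 45.2%, and the other 5 strains lay between 15.9% and 25.7%.

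**Figure D1:**
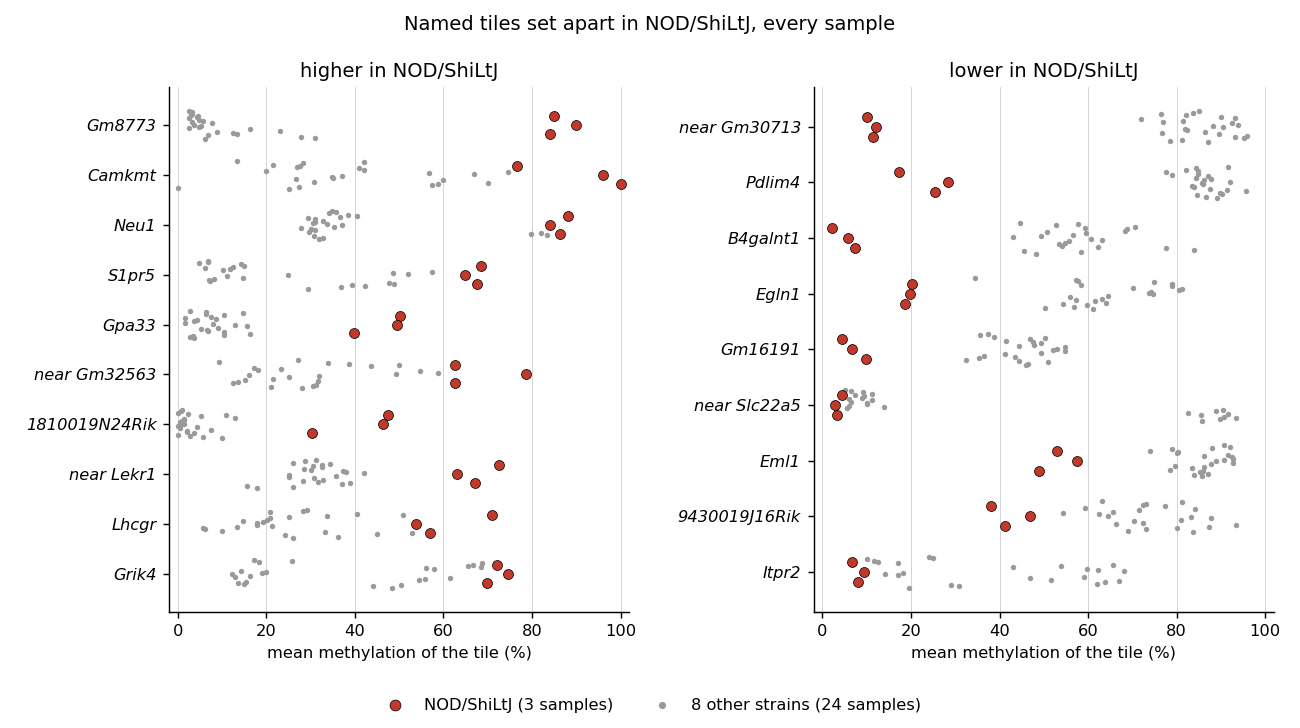
Mean methylation (horizontal axis, %) of the named tiles reported here, 10 higher and 9 lower, with 1 row per tile, red points for the 3 NOD/ShiLtJ samples and grey points for the 24 samples of the other strains. The Gm8773 and Gm30713 rows show wide gaps between the groups, while in the Neu1, Slc22a5, Grik4 and Itpr2 rows some grey points come close to the red ones.

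Further higher tiles lay in genes with other roles. Gpa33, which codes for a cell-surface glycoprotein of the intestinal epithelium, read 50.2%, 49.5% and 39.7% at chr1:166154001-166155000 in NOD/ShiLtJ and at most 16.2% in any other sample. The difference was 39.0 points (limma, adjusted p = 1.25e-07). Camkmt, the gene of calmodulin-lysine N-methyltransferase, was 52.4 points higher at chr17:85257001-85258000, with 76.6%, 96.0% and 100% in NOD/ShiLtJ, 5 positions in the tile and values from 0 to 74.7% elsewhere (limma, adjusted p = 7.98e-05). Lhcgr codes for the receptor of luteinizing hormone. At chr17:88791001-88792000, whose last base is 14 bp from the start of Lhcgr, the tile read 71.0%, 53.8% and 56.9% in NOD/ShiLtJ and up to 52.8% in the others, so that the groups were separated by less than 1 NOD/ShiLtJ standard deviation of 9.18 points. The tile over the start itself was 25.3 points higher and overlapped the others. Its difference was 22.8 points without NOD/ShiLtJ replicate 1 and 23.8 without replicate 3, and it was then not called.

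Grik4, a kainate receptor subunit gene, was at 72.2% ± 2.32 (SD, n = 3) in NOD/ShiLtJ, 34.8 points above the other strains. Here the strains fell into a high and a low set: A/J, C57BL/6J, NZO/HlLtJ and WSB/EiJ had means from 47.6% to 67.1%, and the other 4 from 13.8% to 20.4%. A tile near Lekr1, 34474 bp outside the gene, read 72.4%, 63.0% and 67.1% in NOD/ShiLtJ and at most 42.1% elsewhere. The noncoding genes 1810019N24Rik and Gm29638 share the tile that holds the promoter window above, which was 38.2 points higher, with NOD/ShiLtJ samples at 47.5%, 46.4% and 30.3%. The last of the 10 lay 365 bp from Gm32563 and was 38.7 points higher, though CAST/EiJ reached 58.7% in 1 sample and the lowest NOD/ShiLtJ sample was at 62.5%.

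Methylation was lower in NOD/ShiLtJ at a site on chromosome 8 and in several genes. The tile at chr8:125370001-125371000 overlaps no gene and lies 14884 bp from Gm30713. It read 10%, 12.0% and 11.4% in NOD/ShiLtJ, and the 24 others ran from 72.0% to 95.8%. All 6 of its positions were set apart, and the difference was -74.4 points (limma, adjusted p = 1.02e-11). On the same chromosome a tile of 5 positions in Egln1, the gene of a prolyl hydroxylase that marks hypoxia-inducible factors for degradation, read 20.1%, 19.8% and 18.7% against 34.5% to 81.1% (difference -44.8 points, limma, adjusted p = 5.24e-07).

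Pdlim4 codes for a PDZ and LIM domain protein of the actin cytoskeleton. Its tile at chr11:54060001-54061000 read 17.3%, 28.4% and 25.5% in NOD/ShiLtJ and from 77.6% to 95.6% in the other samples, and all 6 positions were set apart. The difference was -62.8 points (limma, adjusted p = 5.54e-11). Another tile of chromosome 11, 11205 bp from the carnitine transporter gene Slc22a5, was also lower, but by a different pattern. NOD/ShiLtJ read 4.37%, 2.78% and 3.33% there, 5 strains had means of 6.97% to 9.33%, and NZO/HlLtJ, PWK/PhJ and WSB/EiJ had means of 87.3% to 89.7%. The gap to the lowest other sample was 0.833 points.

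B4galnt1, which codes for a glycosyltransferase that builds complex gangliosides, changed in both directions within the gene. At chr10:127170001-127171000 the NOD/ShiLtJ samples read 2.24%, 5.85% and 7.39%, and the others ran from 43.1% to 84.0%; the difference was -53.2 points (limma, adjusted p = 7.32e-10). At chr10:127167001-127168000 they read 27.6%, 39.0% and 46.6% against 0.833% to 17.4%, which was 27.6 points higher (limma, adjusted p = 8.19e-06). Both tiles were set apart, but the second was 23.2 points higher, short of the minimum, without the third NOD/ShiLtJ sample. A run of 16 lower set-apart positions spanned 874 bp, where 37 positions had been tested. These 16 were at 6.18% in NOD/ShiLtJ and 70.3% in the other strains.

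**Figure D2:**
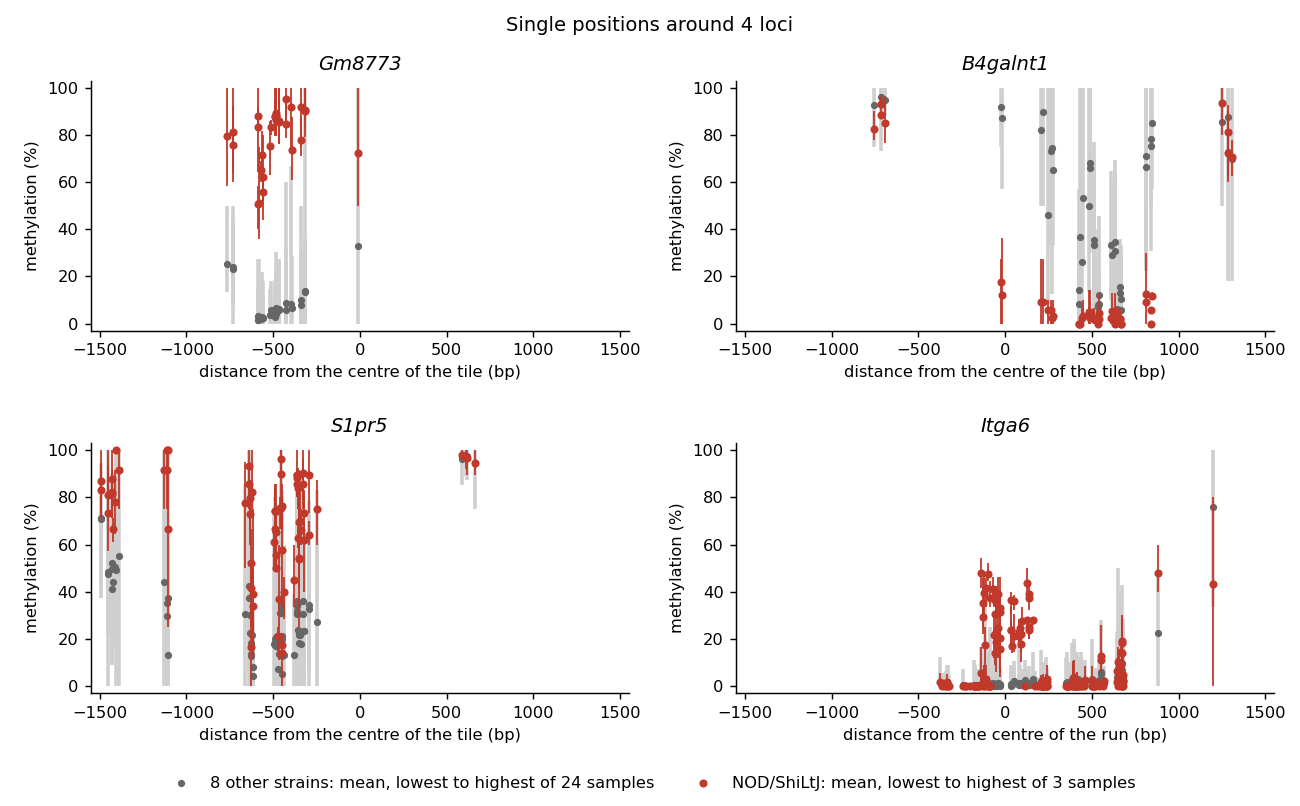
Methylation (vertical axis, %) of single shared positions against their distance in bp from the centre of a tile or run, for Gm8773, B4galnt1, S1pr5 and Itga6. Red points and bars give the mean and range of the 3 NOD/ShiLtJ samples, and grey ones the mean and range of the 24 others; in B4galnt1 the red points lie near 0 where the grey means are higher, and rejoin them on the flanks.

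The remaining named lower tiles lay on other chromosomes. Gm16191, a noncoding RNA gene on chromosome 17, read 4.49%, 6.79% and 9.73% in NOD/ShiLtJ and 32.4% to 54.8% in the others. Eml1, the gene of a microtubule-associated protein, was at 53.2% ± 4.36 (SD, n = 3) in NOD/ShiLtJ, a difference of -32.8 points, with every other sample at 74.1% or above. Itpr2 codes for an inositol trisphosphate receptor that releases calcium in hepatocytes. It read 6.67%, 9.37% and 8.06% in NOD/ShiLtJ, and A/J, DBA/2J, 129S1/SvImJ and WSB/EiJ were also low, at 13.8% to 26.5%. The noncoding gene 9430019J16Rik was at 42.1% ± 4.47 (SD, n = 3), and its nearest other sample was a CAST/EiJ one at 54.4%.

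Of the other set-apart tiles, 2 each lay in Espn, an actin-bundling protein gene, and Lrrc4b, a leucine-rich repeat protein gene. The Espn tiles were 25.1 and 25.6 points higher, and the first was at 24.6 points and not called without NOD/ShiLtJ replicate 1. The smaller Lrrc4b difference, of 25.9 points, was 23.4 points without replicate 2, and that tile was then not called. The larger Lrrc4b tile, a mean of 71 positions, read 51.4%, 54.5% and 52.2% in NOD/ShiLtJ and 13.9% to 25.1% elsewhere. Disp3 read 41.1%, 50.2% and 44.9% against at most 23.4%. Alpk1, the gene of a kinase that senses bacterial sugar metabolites, was uneven among the NOD/ShiLtJ samples, at 57.7%, 22.2% and 20.3%, with the others at or below 18.2%. Without the first of these its difference was 13.2 points and it was not called. A tile 747 bp from Tcp11 was 34.3 points higher and fell within 5 kb of Anks1, an adaptor protein gene. With 3 tiles, all of them higher, Anks1 was the only gene that had 3 or more different tiles within 5 kb. It had 16 tested tiles there, and the median protein-coding gene had 2, so a gene with the median number could not reach 3. In the strongest tile inside Anks1, at chr17:28008001-28009000, NOD/ShiLtJ was at 61.0% ± 3.95 (SD, n = 3), but NZO/HlLtJ was at 61.3% and C57BL/6J at 48.6%. In the adjacent tile NOD/ShiLtJ was at 88.8%, NZO/HlLtJ at 92.5% and A/J at 88.3%.

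**Figure D3:**
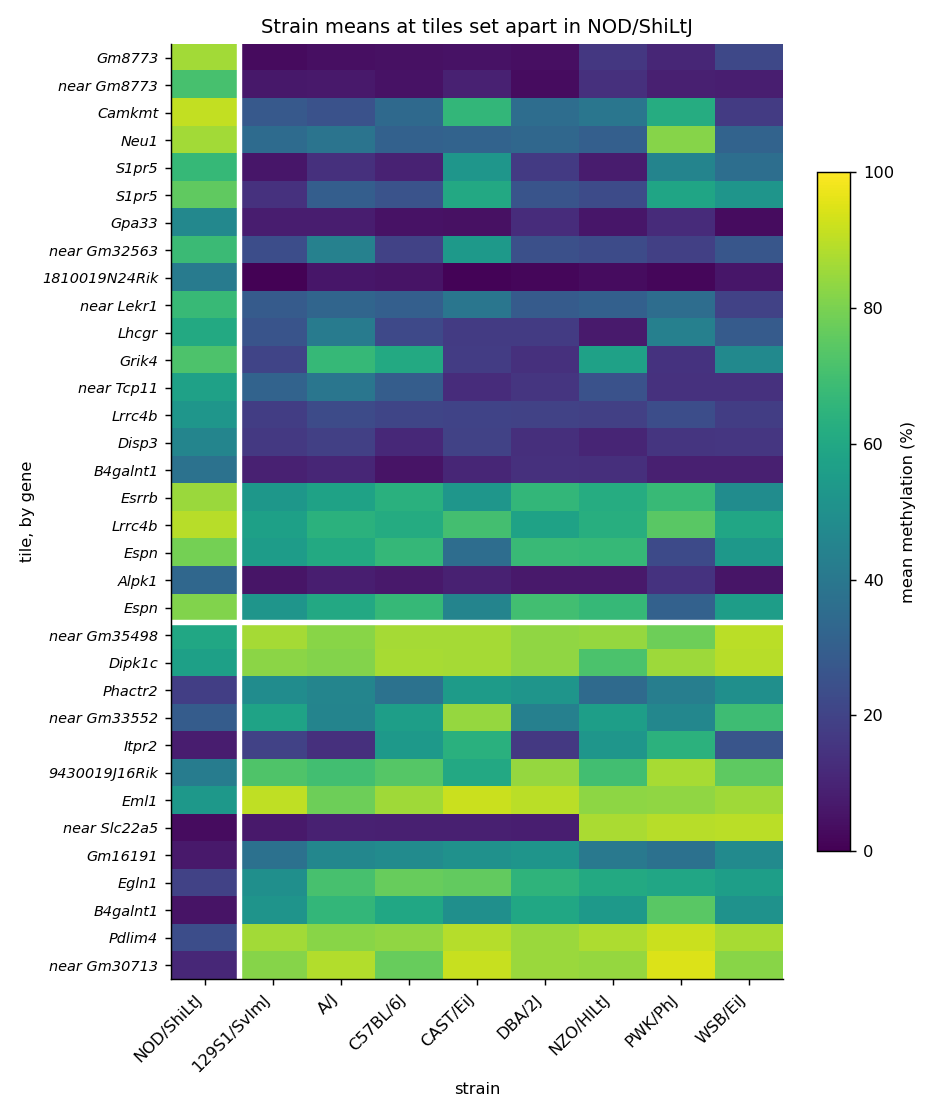
Strain means (colour, % methylation) at the set-apart tiles reported here, with strains in columns and tiles in rows, the 21 higher tiles above the white line and 13 lower ones below it. The Gm8773 rows are bright in the NOD/ShiLtJ column alone, whereas the Neu1 row is bright in PWK/PhJ too.

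Most of the 145 different tiles had another strain on the NOD/ShiLtJ side. A strain was counted on the NOD/ShiLtJ side when its mean lay nearer to the NOD/ShiLtJ mean than to that of the farthest strain. By this count 16 tiles had no other strain on that side, 27 had 1 and the rest had more. Where 1 strain lay on that side it was PWK/PhJ in 9 tiles, A/J in 5, CAST/EiJ and NZO/HlLtJ in 4 each, WSB/EiJ in 3 and 129S1/SvImJ and C57BL/6J in 1 each. Lying on that side does not mean an equal level. In the set-apart tile near Tcp11, A/J was counted there at 39.4%, with NOD/ShiLtJ at 57.1%. Over all 145 tiles A/J lay on the NOD/ShiLtJ side most often, in 65, and CAST/EiJ least often, in 32. These counts follow from tiles chosen for their NOD/ShiLtJ level and describe them only.

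Some of the widest differences lay in tiles where another strain came near the NOD/ShiLtJ level. These tiles were picked after their values were seen. The tile 166 bp from the zinc finger gene Zfp872, at chr9:22187001-22188000, read 14.3%, 8.0% and 6.67% in NOD/ShiLtJ and had a median of 95.0% in the others, a difference of -77.8 points, the widest of the 145. CAST/EiJ was low there as well, with its lowest sample at 13.3%. The pseudogene Gm7177, at chr17:15536001-15537000, was at 88.8% ± 5.33 (SD, n = 3) in NOD/ShiLtJ and at 89.7% in WSB/EiJ, while the other 7 strains had means from 3.57% to 16%.

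By single positions, 2054 of those tested were different (0.292%), with 1105 higher (0.157%) and 949 lower (0.135%) in NOD/ShiLtJ, and 455 were set apart (0.0646%). Without the second NOD/ShiLtJ sample 1219 positions were different. Positions 1 bp apart, which can be the 2 strands of 1 CpG, moved together. Where the first of a pair was different the second was too in 42.4% of 662 pairs, against 0.172% otherwise, and all 281 pairs with both different had the same direction. Set-apart positions no more than 1 kb apart were joined, which gave 235 runs, 176 of them a single position. Of the 235, 19 held 5 positions or more and took in 40.7% of the set-apart positions.

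There were 4 of these longer runs outside the different tiles, and they are named here after their values were seen. Itga6, an integrin alpha subunit gene, had 22 set-apart positions of 36 tested within 279 bp at chr2:71787004-71787282. These 22 were at 35%, 38.1% and 37.7% in NOD/ShiLtJ and at most 1.48% in any other sample. Prdx2, which codes for a peroxiredoxin that removes hydrogen peroxide, had 10 of 10 tested within 70 bp, the nearest of them 55 bp from the start of the gene. They read 37.5%, 47.8% and 51.5% in NOD/ShiLtJ and at most 4.05% elsewhere. A run of 6 in Ccdc117, of 12 tested, was at 44.2% against 2.47%, and one of 7 in Pigyl, of 16 tested, was lower, at 47.9% against 86.4%. In the Itga6, Prdx2 and Ccdc117 runs the mean of the other strains lay under the 2.5% minimum, so the runs as a whole passed that minimum only through the NOD/ShiLtJ samples, and their size is a description. The runs consist of positions chosen by their test, so their means carry no further test.

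Against single strains, NOD/ShiLtJ differed least from NZO/HlLtJ, in 252 tiles (0.553%), and from A/J, in 269 (0.590%). It differed in 282 tiles from 129S1/SvImJ (0.618%), 287 from DBA/2J (0.629%), 328 from C57BL/6J (0.719%) and 454 from WSB/EiJ (0.996%). The counts were 1003 against CAST/EiJ (2.20%) and 1001 against PWK/PhJ (2.19%). These 8 comparisons share the NOD/ShiLtJ samples. NOD/ShiLtJ was the higher strain in between 59.1% and 63.4% of the different tiles against NZO/HlLtJ, 129S1/SvImJ, DBA/2J, WSB/EiJ and C57BL/6J. It was the higher one in 29.7% of those against A/J, 36.3% against PWK/PhJ and 42.3% against CAST/EiJ.

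The tiles called different from each of the 8 strains numbered 12, all of them set apart. They were 2 at Gm8773 and 1 each at Gpa33, Disp3, Lrrc4b, 1810019N24Rik and near Lekr1, which were higher, and Egln1, B4galnt1, Pdlim4, Gm16191 and the site near Gm30713, which were lower. When every strain was compared in the same way with the mean of the rest, NOD/ShiLtJ ranked 7 of 9 in both different and set-apart tiles. The counts of different tiles ran from 125 for 129S1/SvImJ to 718 for PWK/PhJ.

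**Figure D4:**
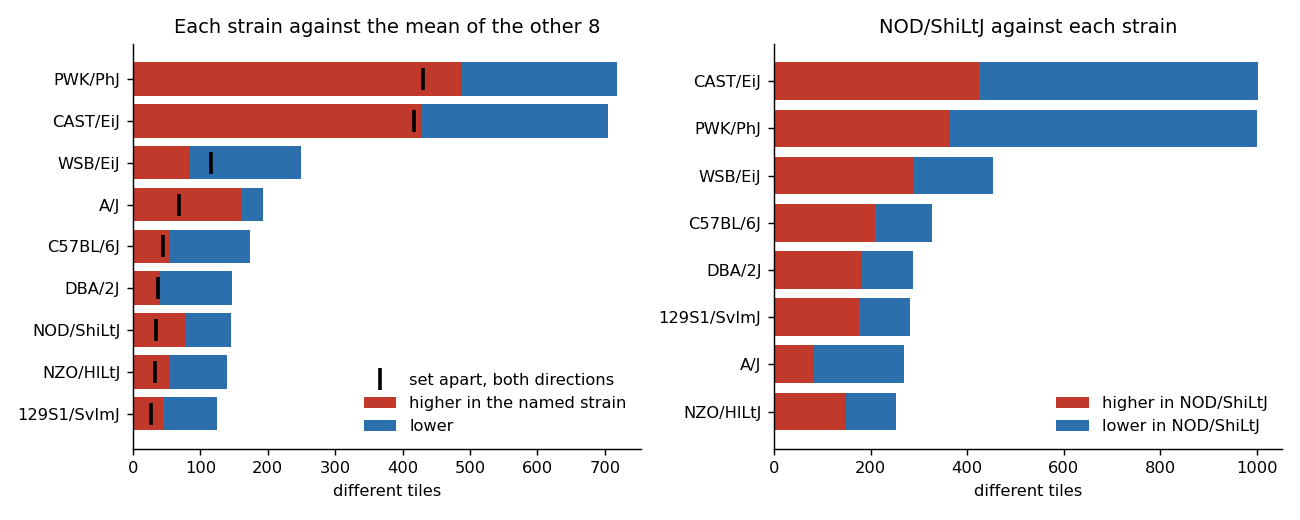
Number of different tiles (horizontal axis), on the left for each strain against the mean of the other 8 and on the right for NOD/ShiLtJ against each strain, with red bars for higher and blue for lower tiles and a black tick for set-apart tiles. NOD/ShiLtJ has 145 tiles on the left, of which 35 are set apart, and 252 to 1003 on the right.

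Among the autosomes different tiles were most frequent on chromosome 17, with 17 of 2147 tested tiles (0.792%), 14 of them higher and 5 set apart. Without NOD/ShiLtJ replicates 1, 2 and 3 in turn, 12, 16 and 14 of the 17 were called. The median autosome had 0.326%, and chromosome 16 had the lowest share of the autosomes, with 1 of 1189. Single positions gave the same first place to chromosome 17, at 0.554%. All 5 different tiles on chromosome 11 were lower and all 4 on chromosome 13 were higher. Different single positions went both ways there, with 50 higher and 75 lower on chromosome 11 and 45 higher and 22 lower on chromosome 13. On the Y chromosome 4 tiles were tested and 1 was different. On the X chromosome 1 of 1587 tiles was different, near Mid1, where the difference was -39.8 points. It was called without the third NOD/ShiLtJ sample but not without the first or second (limma, adjusted p = 0.0969 and 0.0756). Within the MHC, from H2-K1 to H2-M3 at chr17:33996012-37274485, 1 of 194 tiles was different, that of Neu1, or 0.515%, and on the rest of the chromosome 16 of 1953, or 0.819%. A window of 1 Mb at chr17:28000001-29000000 held 4 different tiles of 101, among them those of Anks1 and Gm16191, and a window at chr9:21000001-22000000 held 4 of 92, all higher, 2 of them in S1pr5. The difference between chromosomes was not tested, since neighbouring tiles are not independent.

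**Figure D5:**
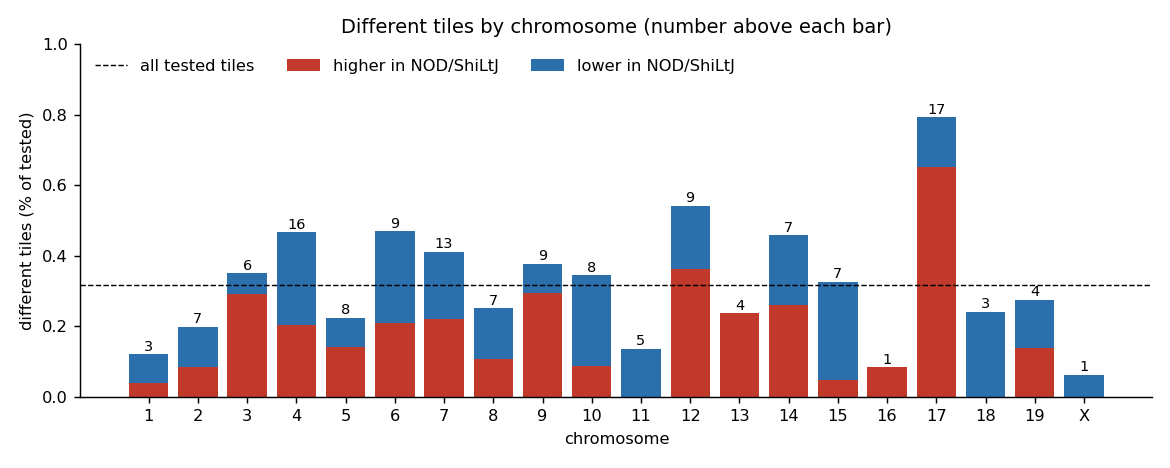
Different tiles as a percentage of the tested tiles (vertical axis) on each autosome and the X chromosome, split into tiles higher (red) and lower (blue) in NOD/ShiLtJ, with their number above each bar and a dashed line at 0.318%, the share over all tested tiles. Chromosome 17 stands highest, at 0.792%.

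Of the 145 different tiles 89 overlapped a protein-coding gene (61.4%), and of the 35 set-apart tiles 24 did (68.6%), beside 67.3% of all tested tiles. Shares of tiles near a start site are not given, because no starts on chromosome 18 were used. Exon and intron boundaries were not used here.

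Among genes linked to diabetes in NOD mice, such as Ptpn22 and Il2ra, both regulators of T cells, 18 of 32 had a tested tile within 5 kb. Ctla4 and Il2 were among those without one. None had a different tile by limma, and 4 had a tile with an unadjusted p under 0.05. Among protein-coding genes with a tested tile 136 of 12676 had a different one (1.07%), with 64 having a higher (0.505%) and 74 a lower one (0.584%), and 33.3% had one with an unadjusted p under 0.05. The median over the 18 genes of the difference was 0.493 points, beside 0.0919 over all protein-coding genes. In Arntl2, a clock gene, a tile of 25 positions read 21%, 19.2% and 13.9% in NOD/ShiLtJ and at most 11.8% in any other sample. Its difference of 13.9 points passed the test (limma, adjusted p = 4.69e-06) but not the minimum of 25. A tile outside but within 5 kb of Fcgr1, an Fc receptor gene, and one of Deaf1, a transcription factor gene, also had an adjusted p under 0.05, with differences of 12.7 and -17.9 points, and overlapped the other samples.

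Lists of MHC region, interferon and innate immunity, and glucose and insulin genes were read in the same way, and they are selections. The MHC list leaves out Neu1 and its neighbour Slc44a4, which lie within 5 kb of the different tile described above. The interferon and innate list leaves out Alpk1 and Irf8, which also had a different tile within 5 kb. None of the listed 13, 16 and 23 genes with a tested tile had a different one, beside 1.07% of protein-coding genes. In limma's test 9, 9 and 10 of them had a tile with an unadjusted p under 0.05, or 69.2%, 56.25% and 43.5%. That share was 33.3% over all protein-coding genes with a tested tile, and the difference from it was not tested. The genes are not separate counts, since H2-DMa and H2-DMb2, Tap1 and Psmb8, and Tnf and Ltb had the same tile values. A gene with more tiles also has more chances of such a p. The 3 lists had 29, 46 and 86 tiles, counted once per gene, and the median protein-coding gene had 2. The same limits hold for the shares of the marker and imprinted lists below. The medians of the differences in the MHC, interferon and glucose lists were 1.19, 0.762 and -0.0233 points. The Myd88 tile at chr9:119339001-119340000, which holds the set-apart position of the promoter window, read 22.2%, 19.9% and 25.2% in NOD/ShiLtJ and 0 to 17.9% elsewhere, which was 19.6 points higher (limma, adjusted p = 1.02e-11). NZO/HlLtJ was close to it, with a mean of 16.3%, and the other 7 strains had means of 0 to 2.18%. A tile of Irf1, a transcription factor gene of the interferon response, was 23.1 points higher (adjusted p = 0.00226), with NOD/ShiLtJ samples at 30.9%, 45.4% and 48.3% and others up to 43.8%. In the complement gene C4b a tile was 21.6 points higher, and one outside but within 5 kb of Cfb, another complement gene, differed by -18.1 points; both overlapped the other samples. Among the glucose and insulin genes a tile of Ppara, a nuclear receptor gene of fatty acid oxidation, was 18.6 points higher (limma, adjusted p = 0.00513). A/J was as high there, at 72.3% against 71.2% in NOD/ShiLtJ, and PWK/PhJ had the lowest strain mean. A tile of the kinase gene Sgk1 was 17.8 points higher (limma, adjusted p = 0.00268), with A/J and DBA/2J above NOD/ShiLtJ and NZO/HlLtJ at 3.16%. One of Ppargc1a, the coactivator of Ppara, differed by -9.54 points (adjusted p = 0.0433) and overlapped the other samples.

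Among 20 hepatocyte markers 1 had a different tile, beside 1.07% of all protein-coding genes with a tested tile. It lay at Foxa1, which codes for a pioneer transcription factor of liver development, at chr12:57548001-57549000, 1890 bp from the start in the RefSeq promoter table. Foxa1 extends only to position 57548029, so it covers the first bases of this tile. The whole tile lies within another gene, Ttc6, at chr12:57546704-57737911. NOD/ShiLtJ read 65.8%, 61.4% and 53.1% and was 28.1 points higher (limma, adjusted p = 3.95e-05), though A/J reached 48.4% and the highest other sample was at 54.8%. At the start of Apob, the gene of the main protein of very low density lipoprotein, NOD/ShiLtJ read 4.0%, 2.5% and 2.5% and every other sample was at 5.0% or above. The difference was -9.32 points (limma, adjusted p = 0.0257), short of the minimum of 25. Of the 10 hepatocyte marker starts read it was the only such start, and the other lists had none. None of 21 markers of other liver cells had a different tile. In limma's test 10 of the 20 hepatocyte markers (50%) and 8 of the 21 other markers (38.1%) had a tile with an unadjusted p under 0.05, beside 33.3% of all protein-coding genes.

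Of 28 imprinted genes 2 had a different tile, beside 1.07% of protein-coding genes, and it was the same one, so that the count rests on 1 tile: Mcts2 is a retrogene inside an intron of H13. The tile at chr2:152687001-152688000 read 33.6%, 27.5% and 43.8% in NOD/ShiLtJ, against a median of 65.2% elsewhere. The difference was -27.5 points (limma, adjusted p = 0.00535), with the lowest other sample at 30.6%. Without the second NOD/ShiLtJ sample it was -23.8 points and not called (limma, adjusted p = 0.0855). Of the 28 imprinted genes 11 (39.3%) had a tile with an unadjusted p under 0.05 in limma's test, beside 33.3% of protein-coding genes.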

How the data were processed

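The authors deposited 1 table per sample with a percent methylation at each listed position. Trim Galore 0.6.3, Bowtie2 and Bismark 0.22 were used, and the builds GRCm38 and mm10 are named, per the submitters' processing notes; the coverage minimum is not given in the sources used here. No counts are in the files, so depth and counting error are unknown. The columns chromosome, position and percent were read as deposited, and of 241842 shared positions inside RefSeq promoter windows 99.998% lie on a CpG of GRCm38.p6.

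The test was limma's moderated test with strain as a factor of 9 levels, on log2((percent + 5)/(100 - percent + 5)), for NOD/ShiLtJ minus the mean of the other 8 strain means, with Benjamini-Hochberg adjustment over all tested features. It was written in Python 3.11.15 and checked against limma 3.58.1 in R 4.3.3, which put the same 1667 tiles under an adjusted p of 0.05, and tested on simulated data. Genes come from RefSeq by position, and tiles are named by the gene they overlap, else by the nearest. Named are the 10 set-apart tiles with the largest difference in each direction, genes with 3 or more different tiles within 5 kb, and listed genes with a different tile within 5 kb; of these, 1 lower tile is counted but not reported here. The strain, the gene lists and the thresholds were chosen with earlier results of these data known. No batch is given in the labels. P-values measure the spread between the samples that the labels call biological replicates.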

Additional observations from a re-analysis of the deposited data

Results flagged for a closer look

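Positions on the Y chromosome were listed for the female NOD/ShiLtJ mice: 1059, 1039 and 1179 in replicates 1, 2 and 3. The other 24 samples, also from females, listed between 790 and 1686, with a median of 1164.5, so NOD/ShiLtJ lay inside their range. A different tile at Gm52481 on the Y chromosome read 97.2%, 97.7% and 97.1% in NOD/ShiLtJ, against means of 17.1% in CAST/EiJ and 97.7% in A/J; without the second NOD/ShiLtJ sample its difference was 24.98 points and it was not called.

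A further 4269 positions were listed in all 3 NOD/ShiLtJ samples and in no other sample, and so entered no comparison. The same count was 3204 for A/J, 7554 for C57BL/6J and 103624 for CAST/EiJ. Of the 152 that lie in RefSeq promoter windows, 98 fall on a CpG of the reference (64.5%). Conversely, 2854 positions were missing in NOD/ShiLtJ and listed in all 24 other samples, and all 154 of those in promoter windows fall on a reference CpG. Whether the remaining NOD/ShiLtJ positions are CpGs that only this strain carries was not tested, as its genome sequence was not used here.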

How the results depend on the processing

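With a minimum difference of 10 points 1043 tiles were different and 125 set apart; with 50 points 12 tiles and 471 positions were different and 6 tiles set apart. With at least 3 positions per tile 230 tiles were different, and with at least 10, 50 were different and 20 set apart; with strands averaged, which leaves fewer positions, 86 were different. At the level of positions 919 were different with an offset of 1 and 3489 on untransformed percent. Leaving out CAST/EiJ and PWK/PhJ together set 59 tiles apart and turned the mean level difference to 0.0869 points (two-sided exact permutation test, p = 0.672); fewer samples must then be passed. Leaving out 1 of the 27 samples in turn gave 132 to 151 different tiles, 33 to 52 set-apart tiles, 1219 to 2162 different positions and a mean level difference of -0.132 to -0.0527 points. The fewest positions, 1219, came without NOD/ShiLtJ replicate 2. Without NOD/ShiLtJ replicates 1, 2 and 3, 110, 120 and 121 of the 145 tiles were still different.

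The replicate numbers do not pair the samples: the deviations of same-numbered samples from their strain means had correlations of -0.0249 to 0.0164 over 19 pairs. With the replicate number as a block 141 tiles and 1585 positions were different and 35 tiles set apart. All 20 named tiles passed both thresholds under each of the 5 alternatives applied to them. These were an offset of 1, the replicate number as a block, and each NOD/ShiLtJ sample left out in turn. The other settings were not applied to the named tiles. Some could not pass them: the tiles of Camkmt, Egln1 and Itpr2 hold 5 positions each, fewer than the 10 of the stricter tiles. Of 318 alternative values 304 kept their direction and call, or stayed within 1.5 times the count. Of the 318, 100 belonged to the named tiles, and many others came from leaving out 1 sample. A count within 1.5 times does not mean the same tiles: 56 of the 145 different tiles were lost in at least 1 of the NOD/ShiLtJ leave-outs. Depth is unknown, so the precision of a tile cannot be given.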

Other observations

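Rn18s-rs5, a chromosome 17 stretch annotated as ribosomal RNA, was at 20.5% ± 3.77 (SD, n = 3) in NOD/ShiLtJ over 82 positions. That was the next strain mean below A/J, at 41.8%, with the remaining strain means running from 8.70% to 18%. Around the start of the imprinted gene Mest NOD/ShiLtJ was at 60.0% ± 3.26 (SD, n = 3) over 10 positions, behind CAST/EiJ at 85.2% and PWK/PhJ at 70.5%.

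In these females 40.8% ± 0.466 (SD, n = 3) of the X-linked positions in NOD/ShiLtJ read between 20% and 80%, against 9.96% ± 0.260 of the autosomal ones. The X-linked share ran from 33.6% to 45.1% in the other samples.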
